A study of Mus musculus with 2 samples.

Results

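The clustered protocadherin genes are 57 protein-coding genes in 3 tandem arrays on mouse chromosome 18. They were chosen by symbol (Pcdha, Pcdhb or Pcdhg) from the RefSeq table of GRCm38.p6, the assembly behind mm10, out of 21887 protein-coding genes on the autosomes, X and Y. The alpha array holds 14 of them, the beta array 22 and the gamma array 21. Regions of PHLPP1 signal over these arrays with 50 kb on either side were compared between 2 CUT&Tag libraries, in which an antibody guides a transposase to cut and tag nearby DNA. PHLPP1 is a phosphatase best known for removing phosphate from AKT. Both libraries were made from alveolar macrophages, which live in the airspaces of the lung and clear inhaled particles, collected from wild-type mice by bronchoalveolar lavage. One library was untreated, and for the other the cells received 20 ng/ml of the cytokine interleukin-4 (IL-4) over 4 h. The strain, age and sex of the mice and any pooling of animals are not given in the sources used here. With 1 library per group there is no replicate check, and every difference below describes these 2 libraries and carries no p-value. A control antibody library was not analysed here.

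Clustered protocadherins are adhesion proteins of the cadherin superfamily that bind the same isoform on a neighbouring cell. They are best known from neurons, where each cell uses its own mix of isoforms as an identity that lets its branches avoid one another. Each alpha and gamma gene has its own promoter and its own large variable first exon, which is spliced to constant exons that all genes of the array share at its far end. Beta genes have no shared constant exons, and nearly the whole protein comes from 1 exon. CTCF and cohesin loop chosen promoters to distant enhancers, and DNA methylation keeps the other promoters silent. Genes at the far end of the alpha and gamma arrays form a separate C-type group that many neurons use alike.

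Over all chromosomes, 165968 regions were listed untreated and 226476 with IL-4, with a −log10 p of 2 or more. A region's pileup is the number of overlapping fragments at its summit, recovered here from the authors' fold and p. The fold is the authors' ratio of that pileup to the background their caller estimated, with 1 added to each. That background was a constant of the library for 68.7% of untreated and 54.2% of IL-4 regions, and a local one for the rest. The constant background was 13.9 fragments untreated and 15.9 with IL-4. Their ratio was 1.14, and pileups are not scaled for it. A gene was called marked when a region lay within 1 kb of an end, which held for 57.5% and 70.4% of protein-coding genes. Alveolar macrophage genes were marked at 13 and 14 of 15, Chil3 being the exception in both. Marked genes numbered 3 and 7 of 8 for lung epithelium, 1 and 5 of 6 for lymphocytes, 2 and 3 of 5 for granulocytes, 1 and 5 of 6 for fibroblasts and endothelium, and 4 and 6 of 12 for neurons. A region near a gene does not measure its expression, and the part of other cells in the results below was not tested.

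The window of 1012 kb from 50 kb before Pcdha1 to 50 kb past the gamma array (chromosome 18, 36880285 to 37891873, mm10) held 79 untreated regions and 98 IL-4 regions. Untreated folds ran from 1.74 to 2.95 with a median of 2.21, and IL-4 folds from 1.78 to 3.85 with a median of 2.205. The autosomal medians were 2.15 and 2.19. None of the untreated regions and 4 of the IL-4 regions reached a fold of 3, a limit that 9.08% and 12.9% of autosomal regions reached. The window held 7.81 untreated and 9.69 IL-4 regions per 100 kb, against 6.87 and 9.38 over the autosomes.

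The regions were denser over the alternate alpha and gamma arrays and the beta array than between the arrays. The alternate alpha array from Pcdha1 to 5 kb past the start of Pcdha12 held 14.7 untreated and 16.9 IL-4 regions per 100 kb. For the alternate gamma array from Pcdhga1 to 5 kb past Pcdhga12 the densities were 14.7 and 18.4, and for the beta array 11.3 and 10.1. The rest of the alpha array, with the C-type genes and constant exons, held 3.67 per 100 kb in each library. That was below the autosomal densities. The rest of the gamma array held 5.61 and 18.2. Between the beta and gamma arrays 4 and 8 regions lay in 140.4 kb, or 2.85 and 5.70 per 100 kb, and 2 of the 8 reached a fold of 3. The interval between the alpha and beta arrays held 1 and 2 regions in 76.1 kb. Its longest stretch free of regions measured 66.2 kb in the untreated list and 63.6 kb in the IL-4 list. Another empty stretch, of 67.3 kb in the untreated list, lay between Pcdha12 and Pcdhac1. The first 3 kb of the alpha and gamma genes and the whole of the beta genes made up 17.9% of the window. They held 55 of 79 untreated summits (69.6%) and 58 of 98 IL-4 summits (59.2%). The bound of 3 kb was not planned. It is the upper end of the interval of 1 to 3 kb used below, which was chosen after positions were seen, so these shares are no test.

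**Figure D1:**
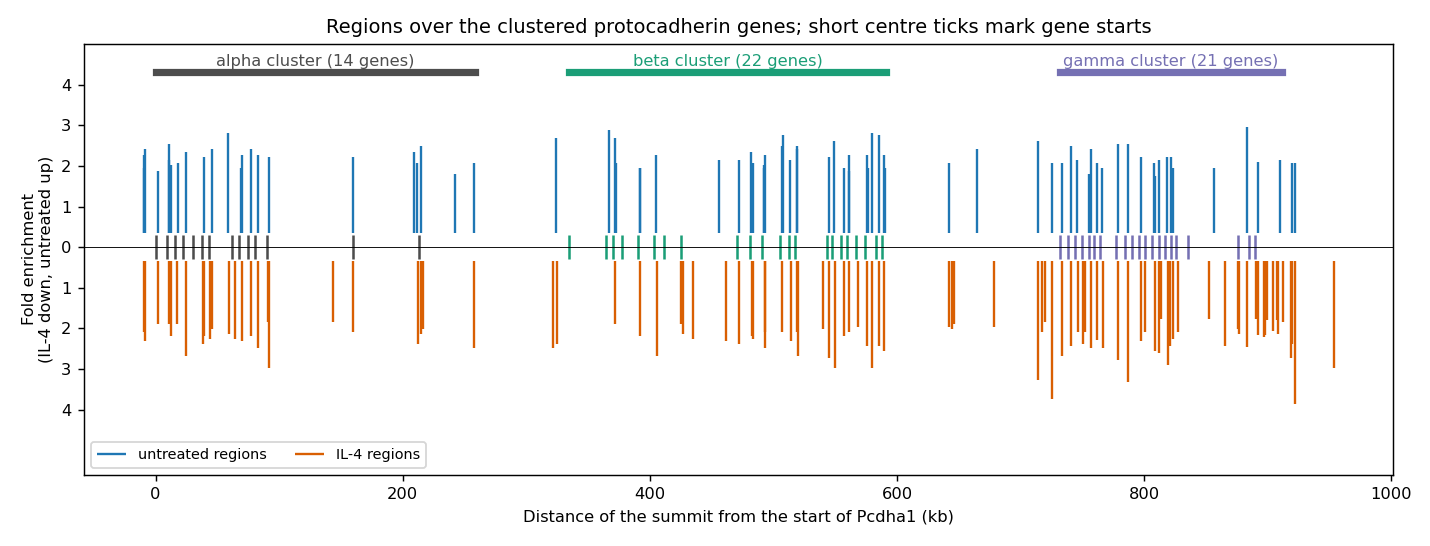
Regions along the window, as the distance of each summit from the start of Pcdha1 in kb, with the authors' fold as the height of each line (79 untreated regions upward, 98 IL-4 regions downward) and gene starts as short ticks in the centre. The lines gather over the ticks of the 3 arrays, the interval between the alpha and beta arrays holds 1 and 2 regions, and only 4 lines, all IL-4, pass a fold of 3.

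Within the genes the regions sat about 2 kb past the start rather than at it. Of the 57 genes, 40 (70.2%) had a summit 1 to 3 kb past the start untreated and 45 (78.9%) with IL-4. Among 17274 other protein-coding genes with a known start, none of them on chromosome 18, 15.1% and 23.6% had one. The start itself showed the opposite order. A region lay within 1 kb of the start in 6 of the 57 genes (10.5%) untreated and 9 (15.8%) with IL-4, against 52.3% and 63.7% of the other genes. The interval of 1 to 3 kb was chosen after the positions were seen, so these shares describe the genes and are no test. With a −log10 q of at least 5, 4 of the 57 genes were left untreated, against 4.32% of other genes, and 16 of the 57 with IL-4, against 10.7%. At a fold of at least 3 the numbers were 0 and 1, against 2.62% and 5.44%. Gene starts are those of the RefSeq table, read in the direction of increasing coordinates for all 3 arrays.

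Within that interval, which itself bounds the spread, summits lay at a median of 2020 bp past the start untreated (SD 265 bp over 40 genes) and 2027 bp with IL-4 (SD 259.5 bp over 45 genes). In the 250 bp step that begins 2000 bp past the start, 40.4% and 42.1% of the clustered genes had a summit. The other genes had one in that step in 1.9% and 3.1% of cases, and their highest step, the 250 bp just before the start, reached 20.2% and 24.5%. For each clustered gene the region of highest −log10 q was taken, and 28 of 40 untreated and 30 of 45 IL-4 summits lay between 1900 and 2300 bp past the start.

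**Figure D2:**
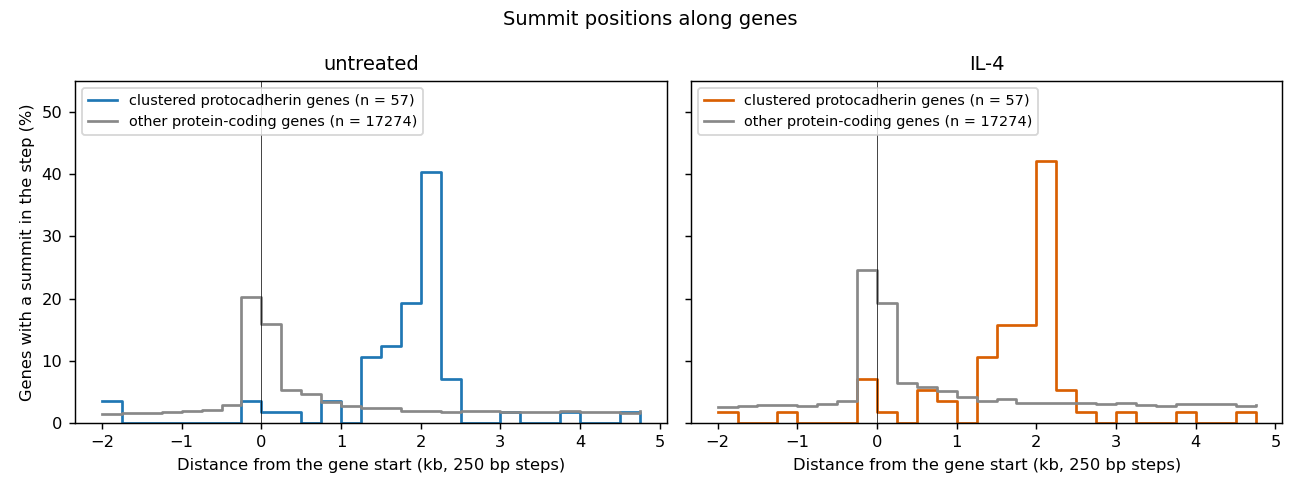
Share of genes (percent) with a summit in each 250 bp step from 2 kb before to 5 kb past the start, for the 57 clustered protocadherin genes (coloured) and 17274 other protein-coding genes (grey), in the untreated and the IL-4 library. The grey line peaks at the start, while the coloured line peaks 2000 to 2250 bp past it, at 40.4% and 42.1%.

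Of the 12 alternate alpha genes, Pcdha1 to Pcdha12, 10 had such a summit untreated and 11 with IL-4. Untreated summits lay 1837 to 2344 bp past the start and IL-4 summits 1390 to 2251 bp. Pcdha12 had a pileup of 32 fragments untreated (95% Poisson interval 21.9 to 45.2) and 49 with IL-4 (36.3 to 64.8), with folds of 2.21 and 2.96. Pcdha4 had pileups of 34 and 44, Pcdha6 of 32 and 39, Pcdha9 of 33 and 38, and Pcdha11 of 33 and 41. These 5 were higher with IL-4, but for none did the intervals part. In Pcdha6 the regions compared did not overlap. The IL-4 region that overlapped its untreated one had 36 fragments and a fold of 2.19, against 2.21 untreated. Pcdha2 went the other way, with 37 fragments untreated and 31 with IL-4, and so did Pcdha7, with 35 and 33. Pcdha7 also had an IL-4 region 551 bp past its start (37 fragments). In Pcdha9 the summits lay at nearly the same base, 2246 and 2251 bp past the start. Pcdha8 had a summit with IL-4 only (37 fragments, 2153 bp past the start), and Pcdha5 had no region from 1 kb before to 3 kb past its start in either list. Over the 10 genes with both, the median ratio of the IL-4 to the untreated pileup was 1.15, close to the 1.14 of the backgrounds.

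Of the 2 C-type alpha genes, Pcdhac1 differed from the alternate ones in where its region lay. At Pcdhac1 the region lay just before the start, with the summit at -231 bp from it untreated (32 fragments, fold 2.21) and at -193 bp with IL-4 (34 fragments, fold 2.08). It was 1 of 3 clustered genes with a region at the start in both libraries. Pcdhac2 had summits 1581 and 1435 bp past the start, with 36 and 35 fragments. Its IL-4 summit lay within the 1390 to 2251 bp of the alternate alpha genes, and its untreated one below their 1837 to 2344 bp. Neither gene was higher in fold with IL-4. The common finish of the alpha array, behind the constant exons, carried a region in both libraries, at 37187972 to 37188262 in the untreated list and 37187937 to 37188419 in the IL-4 list.

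In beta genes, which are 2340 to 5271 bp long, the summits lay at a median of 1906 bp past the start untreated and 1999.5 bp with IL-4, against 2240.5 and 2126 bp in the alternate alpha genes. That difference was not tested. Of 22 beta genes, 17 had a summit 1 to 3 kb past the start untreated and 18 with IL-4. The summits lay 1416 to 2211 bp past the start untreated and 1362 to 2287 bp with IL-4. Other protein-coding genes in that range of lengths held a summit anywhere inside in 39.7% of cases untreated and 53.7% with IL-4, while 17 and 18 of the 22 beta genes did. Beta genes filled 29.5% of the array's 256 kb, and 27 of its 29 untreated regions and 22 of its 26 IL-4 regions had their summit in one.

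Pcdhb2 had the strongest beta region of the untreated list, with 42 fragments (interval 30.3 to 56.8) and a fold of 2.88, 2148 bp past the start. No IL-4 region was listed within that interval, and Pcdhb2 was the only clustered gene with such a summit in the untreated library alone. Pcdhb16 had 38 fragments untreated (26.9 to 52.2) and 49 with IL-4 (36.3 to 64.8), and Pcdhb15 had 32 and 45. Both were higher with IL-4, within overlapping intervals. Pcdhb12 was lower, with 40 and 34 fragments, and so was Pcdhb3, with 39 and 31. Pcdhb21 had 40 in each library. Pcdhb8 (35 fragments) and Pcdhb19 (32 fragments) had the summit with IL-4 only. Pcdhb6 had 33 and 44 fragments, Pcdhb14 had 36 and 44, and Pcdhb22 had 33 and 42. Pcdhb9 had 31 and 39, Pcdhb17 had 28 and 36, Pcdhb10 had 30 and 37, and Pcdhb11 had 33 and 41. These 7 were higher with IL-4, within overlapping intervals. Near the start itself, Pcdhb10 and Pcdhb11 had untreated regions with summits 799 and 828 bp past it (34 and 29 fragments), and Pcdhb8 had an IL-4 region 584 bp past it (31 fragments). Pcdhb1, Pcdhb4 and Pcdhb7 had no region from 1 kb before to 3 kb past the start in either list. Over the 16 beta genes with both, the median pileup ratio was 1.24.

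More than 1 summit lay 1 to 3 kb past the start in 8 beta genes untreated and 3 with IL-4, and in 2 and 2 of the alternate alpha genes. Over all clustered genes these numbers were 11 and 7. The region of highest −log10 q per gene had a median width of 528 bp untreated and 698 bp with IL-4 in beta genes, 420 and 626 bp in gamma A genes, and 267 and 351 bp in alternate alpha genes.

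The gamma array holds A-type genes with B-type genes interspersed among them, then the C-type genes. Of 12 gamma A genes, 10 had the summit untreated and 11 with IL-4, at medians of 2022 and 2027 bp past the start. Pcdhga7 carried the region of highest fold among the 57 genes, with 37 fragments untreated (26.1 to 51.0) and 55 with IL-4 (41.4 to 71.6), folds of 2.55 and 3.32. Its summits lay 2006 and 1998 bp past the start. Pcdhga10 had 32 and 48 fragments, Pcdhga1 had 30 and 44, Pcdhga6 had 37 and 46, and Pcdhga2 had 36 and 40. The 10 gamma A genes with both were all higher in pileup with IL-4, by a median ratio of 1.32 and a lowest ratio of 1.097, which is under the 1.14 of the backgrounds. In fold, which is set against the background, 8 of the 10 were higher. Shared regions outside the window with untreated folds of 1.74 to 2.95 had a median pileup ratio of 1.25 (quartiles 1.09 and 1.47). The gamma A median lay between those quartiles. Pcdhga11 had the summit with IL-4 only (34 fragments), and Pcdhga12, the last of the A genes, had no region near its start in either list.

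Of 6 gamma B genes, 2 had the summit past the start untreated and 4 with IL-4. Pcdhgb2 had 30 and 38 fragments there and Pcdhgb7 had 28 and 37. Pcdhgb1 and Pcdhgb6 had the summit with IL-4 only, with 34 and 29 fragments. B genes were also listed at the start itself. Pcdhgb6 had a region with its summit at -64 bp from the start untreated (31 fragments) and at -93 bp with IL-4 (43 fragments). At Pcdhgb7 the summits lay 32 bp past the start untreated (32 fragments) and at -71 bp with IL-4 (40 fragments). Pcdhgb5 had one 29 bp past the start with IL-4 only (34 fragments). With Pcdhgb1, 4 of 6 gamma B genes had a start region in the IL-4 library, against none of the 12 gamma A genes. Untreated, 2 B genes and 1 A gene had one, the latter being Pcdhga4 (264 bp past the start, 26 fragments). The difference was not tested, and with so few genes it rests on weak single regions. Pcdhgb4 had neither kind.

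None of the 3 gamma C-type genes had a summit 1 to 3 kb past the start in either library. Pcdhgc3 had IL-4 regions with summits at -147 and 622 bp from the start (33 and 35 fragments), and Pcdhgc5 one 917 bp past it (38 fragments). No untreated region lay within 1 kb of these starts. The strongest untreated region of the gamma window lay between the starts of Pcdhgc3 and Pcdhgc4, at 37812863 to 37813695, with 43 fragments and a fold of 2.95. Its IL-4 counterpart had 44 fragments and a fold of 2.46, over a background of 17.3 fragments against 13.9 untreated.

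**Figure D3:**
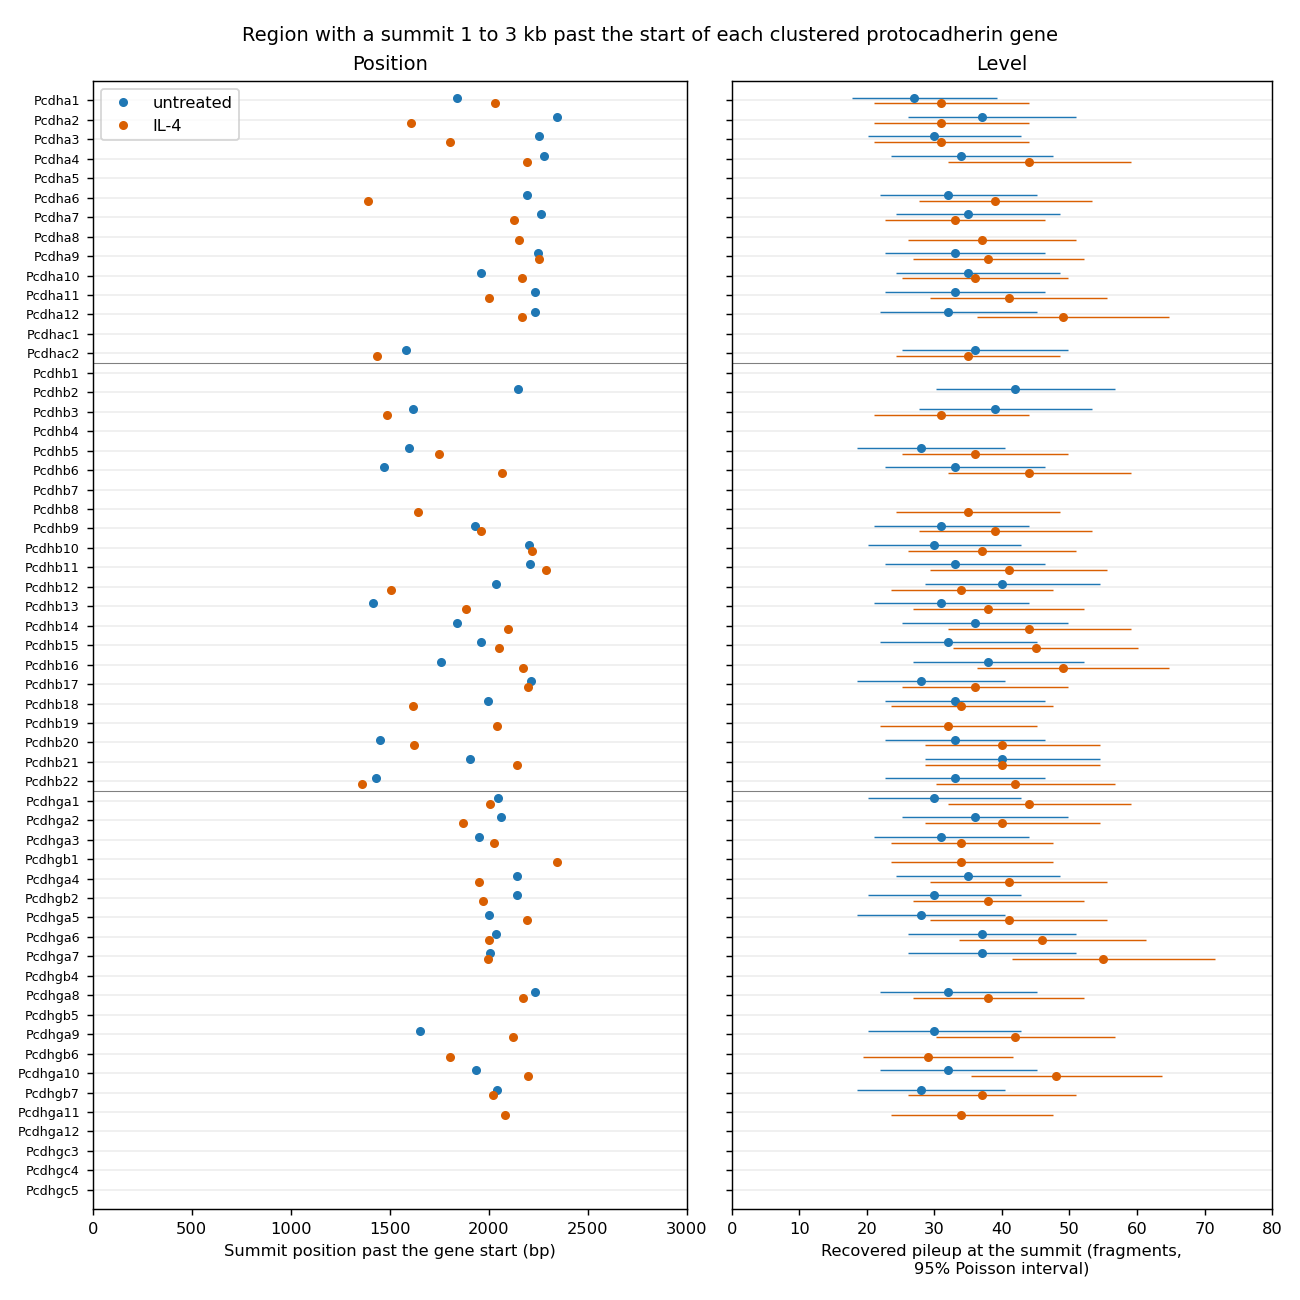
Left, position of the summit in bp past the start for each of the 57 genes, in chromosome order. Right, the recovered pileup in fragments with its 95% Poisson interval, which covers counting error only. Where a gene has several summits 1 to 3 kb past the start, the one of highest −log10 q is shown. Most points lie near 2 kb in both libraries, the intervals of the libraries overlap for all 39 genes with both, and the rows of 11 genes are empty.

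Across the 3 arrays, 39 genes had a summit 1 to 3 kb past the start in both libraries. With IL-4 alone it was found in 6 genes (10.5%), close to the 11.8% of the other genes, and untreated alone in 1, against 3.31%. Fold was higher with IL-4 in 28 of the 39 and pileup in 33, with a median pileup ratio of 1.23. The counting intervals overlapped in all 39. Shared regions of like fold elsewhere, 1.74 to 2.95 in the untreated list, had a median ratio of 1.25 (quartiles 1.09 and 1.47, 87899 regions). Over the window the ratio was 1.24 (1.07 and 1.32, 64 regions). The regions of the 2 libraries overlapped in 38 of the 39 genes. Only 15 of the 39 had their summits within 100 bp of each other, and the median shift was 168 bp.

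By cluster with its flanks, the numbers of regions moved differently. The alpha cluster had 23 untreated and 24 IL-4 regions, the beta cluster 30 and 28, and the gamma cluster 24 and 42. As ratios these were 1.04, 0.933 and 1.75, beside 1.25 for chromosome 18 and 1.36 for the lists as a whole. The gamma gain came mostly from outside the alternate array. From 5 kb past the start of Pcdhga12 to the finish of the gamma genes, where the C-type genes and the constant exons lie, regions numbered 4 untreated and 13 with IL-4, and 2 of the 13 overlapped an untreated region. Their IL-4 folds were 1.78 to 2.46. The local background there was above the constant one for 9 of the 13 IL-4 regions, up to 21.1 fragments, whereas it was the constant one for all 26 IL-4 regions of the beta array. With lists of equal length the IL-4 numbers were 18, 24 and 33, against 23, 30 and 24 untreated.

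**Figure D4:**
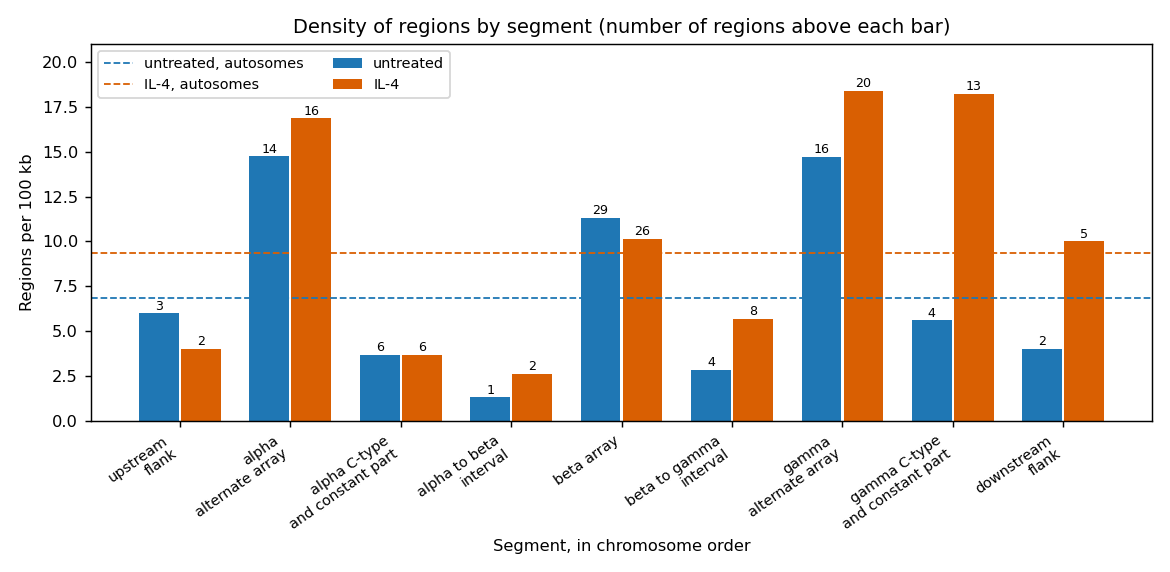
Regions per 100 kb in 9 consecutive segments of the window, untreated and IL-4, with the number of regions above each bar and dashed lines for the density over the autosomes. The alternate arrays and the beta array exceed the autosomal lines in both libraries, and the gamma C-type part (13 regions against 4) and the downstream flank (5 against 2) do so with IL-4 only. The alpha C-type part (6 regions in each library) lies below both lines.

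Of the untreated regions, 64 of 79 (81.0%, exact 95% interval 70.6 to 89.0) overlapped an IL-4 region, against 62.9% over all chromosomes. Of the IL-4 regions, 58 of 98 (59.2%, 48.8 to 69.0) overlapped an untreated one, against 45.6%. In the gamma cluster with its flanks 47.6% of IL-4 regions did. Among regions with a −log10 q of at least 5 in both lists, the shares were 25% of 8 and 7.69% of 26. Against the full other list, only 1 of these 8 and 3 of these 26 had no overlap. The shares over all chromosomes were not computed at that limit. Within the first 3 kb of alpha and gamma genes and inside beta genes, 87.3% of untreated and 70.7% of IL-4 regions were shared, against 66.7% and 42.5% in the rest of the window. That bound of 3 kb was not planned, and the split is no test. Neighbouring regions are not independent, so the intervals cover counting error only. The 15 regions of the untreated list alone had folds of at most 2.88, and the 40 of the IL-4 list alone of at most 2.96.

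Calling a gene marked by either of its ends gives a different picture, because all alpha genes share a finish, and so do all gamma genes. By that count all 14 alpha genes were marked in both libraries, though only Pcdhac1 and, with IL-4, Pcdha7 had a region at the start. Gamma genes went from 3 of 21 untreated to 21 of 21 with IL-4. Over all protein-coding genes 16.0% were marked with IL-4 alone. By their own starts 6 of the 21 were marked with IL-4, and the rest were marked through 1 region at 37842731 to 37843027, with 34 fragments, a fold of 1.85 and a −log10 q of 1.80. It lay 858 bp past the gamma finish and 574 bp from the lower end of Diaph1, and an untreated region 1.28 kb before the finish was just too far to count. Beta genes, each with its own finish, were marked at 9 and 8 of 22. With each shared finish counted as 1, the arrays have 81 distinct ends. Of these, 15 (18.5%) were marked untreated and 19 (23.5%) with IL-4, against 33.6% and 44.9% of all protein-coding gene ends. The counts of the clustered genes depend on the width of 1 kb, since with 2 kb 57 and 62 of the 81 ends were marked. The other genes were not counted at 2 kb, so whether the order holds there was not tested. With IL-4 alone 8 ends (9.88%) were marked, against 14.4%, and untreated alone 4, against 3.06%. With a −log10 q of at least 5, 3 and 4 ends were left, against 17.5% and 29.2%. With that limit on both lists, the 4 counted as IL-4 alone, against 12.2%, and the 3 as untreated alone, against 0.468%. Most had a weaker region in the other library. The IL-4 ends, of Pcdhb15, Pcdhb22, Pcdhgb6 and the alpha array, had untreated regions of 32, 28, 31 and 30 fragments. Of the untreated ends, Pcdhb12 and Pcdhb21 had IL-4 regions of 34 and 40 fragments, and Pcdhb2 had none.

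Of the 4 IL-4 regions of fold 3 or more, 1 lay at a protocadherin gene, Pcdhga7, and 3 lay outside them. The region at 37852110 to 37852525, inside the formin gene Diaph1, had 67 fragments and a fold of 3.85, while the untreated region there had a fold of 2.08. Another at 37655564 to 37655904, between Taf7 and Pcdhga1, had 62 fragments and a fold of 3.74, against 2.08 untreated. At the upper end of Taf7, which encodes a subunit of the general transcription factor TFIID, pileups were 38 and 54 and folds 2.62 and 3.26. Also inside Diaph1, a region at 37883553 to 37883811 with IL-4 alone had 49 fragments and a fold of 2.96. Slc25a2, a mitochondrial carrier gene beside Taf7, had no region at either end. Just past the window, the upper end of Diaph1 had pileups of 78 and 156 and folds of 5.30 and 8.04. The RefSeq models Gm37013, Gm38666 and Gm38667, which run from alpha starts to the gamma finish, had at their upper ends the same IL-4 region as the gamma genes. In the alpha array the highest untreated fold, 2.82 (41 fragments), was at 36988741 to 36989416 in the model Gm36858, against 2.13 with IL-4. A region before Pcdha1, at 36921642 to 36921991 in the model Gm6756, had folds of 2.41 and 2.31. Outside every protocadherin gene, a region between Pcdhb20 and Pcdhb21 had folds of 2.82 and 2.96 (41 and 49 fragments). One between the alpha and beta arrays had folds of 2.68 and 2.37. Both lay within the span of Gm37013, Gm38666 and Gm38667.

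Protocadherin genes outside the arrays carried regions past the start too. Of 9 with a known start, 5 had a summit 1 to 3 kb past it untreated and 3 with IL-4. Pcdh10 had summits 1567 and 1987 bp past the start (32 and 36 fragments), Pcdh18 2513 and 2976 bp (31 and 38 fragments) and Pcdh17 2378 and 2530 bp (30 and 31 fragments). Pcdh8 and Pcdh7 had one in the untreated library alone. These summits lay 1023 to 2976 bp past the start, wider apart than those of the clustered genes. Pcdh12 was marked at an end with IL-4 alone (fold 1.74). Of 13 cadherin genes with a known start, 5 and 4 had a summit 1 to 3 kb past it. Cdh3 (3.79), Cdh26 (2.22), Cdh1 (2.12) and Cdh11 (1.90) were marked at an end with IL-4 alone, in order of −log10 q with their folds. That is 4 of 23 cadherin genes, against 16.0% of all protein-coding genes. Among other clustered families, 2 and 3 of 22 Hox genes had one, and 49 and 72 of 1267 olfactory and vomeronasal receptor genes (3.87% and 5.68%). Hoxc4 and Hoxc5 (each with a fold of 3.26), Hoxb8 (2.67) and Hoxc10 (2.55) led the Hox genes marked at an end with IL-4 alone. Those were 13 of 39, against 16.0% of all protein-coding genes. Another 3 Hox genes were marked untreated alone, against 3.06%. The shares of the clustered protocadherins stood above those of all 4 families, and no test was made.

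Of 20 genes for proteins known to control the arrays, 12 (60%) were marked untreated and 15 (75%) with IL-4, against the 57.5% and 70.4% of all genes. Ctcf, which encodes the factor that anchors the promoter loops, had folds of 3.69 and 4.98, and the cohesin subunit genes Smc3 and Smc1a had 4.36 and 6.996, and 3.55 and 4.39. Smchd1, which encodes a repressor of the arrays, had 4.49 and 6.76. Setdb1 (3.08) and Ehmt2 (2.87), which encode histone H3 lysine methyltransferases, and Tet3 (1.87), which encodes an enzyme that oxidises methylated DNA, were marked with IL-4 alone. Dnmt3a, Dnmt3b, Rad21, Nipbl and Stag1 were marked in neither library. Of 9 genes for proteins that act with protocadherins inside the cell, 7 (77.8%) and 6 (66.7%) were marked, against 57.5% and 70.4% of all genes, among them the kinase genes Ptk2 (3.42 and 4.09) and Fyn (3.62 and 6.07). Src was marked in the untreated library alone, with a fold of 2.24.

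The arrays hold many similar exons, and reads that match several of them are placed by the aligner or dropped. How such reads were treated is not given in the sources used here, so the level at any single gene is uncertain, and the part of this in the positions was not tested.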

How the data were processed

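Each CUT&Tag library came with 1 list of regions. Bowtie 0.12.8, MACS2 2.2.7.1, DiffBind and mm10 appear without roles per the submitters' processing notes, and settings and filters are not given in the sources used here. In the deposited lists the fold is a ratio to each library's own background, constant or local, and −log10 p and −log10 q refer to that background. The authors' score is the −log10 p on a larger scale and was not used, and the deposited summit offset gave the summit. Fold and p together gave back the pileup, whole within 0.05 for 99.95% of untreated and 99.96% of IL-4 regions.

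Regions were set against RefSeq genes of GRCm38.p6. Clustered genes were read towards higher coordinates, from the shared upper ends of the alpha and gamma genes. Other genes took their strand from the RefSeq promoter table. It has no entry on chromosome 18, so other genes there, such as Pcdh1 and Pcdh12, are left out of counts by start. Promoter letters were not analysed here. The members and lists were chosen with earlier results of these data known, and the interval of 1 to 3 kb after positions were seen. By rule any member could be named, and those with an end region were, up to 10 per array by −log10 q. Also named by rule were the 5 regions of highest fold per array and library and other protein-coding genes of the window. Regions of fold 3 or more in 1 library alone were to be named, but there were none. From each list up to 4 genes marked in 1 library alone were named, except that cell type markers and receptor genes are given as counts. Other genes named, such as Ctcf or Pcdh10, and members picked to show a position or direction, were chosen after their values were seen. Shares have exact Clopper-Pearson 95% intervals and pileups exact Poisson ones, for counting error only. Overlap meant at least 1 bp. Alternatives were a −log10 q of at least 5, a fold of at least 3, lists of equal length, and other windows, flanks and overlaps. The code was tested on simulated data (Python 3.11.15; numpy 2.4.6; pandas 2.3.3; scipy 1.17.1; matplotlib 3.10.9).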

Additional observations from a re-analysis of the deposited data

How the results depend on the processing

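Of 75 values recomputed under an alternative, 36 stayed within the set limits and 39 moved, mostly under the stricter limits on −log10 q and fold. With a −log10 q of at least 5, marked ends fell from 15 to 3 untreated and from 19 to 4 with IL-4. Those with IL-4 alone, with the limit on both lists, fell from 8 to 4. Untreated regions fell to 1, 6 and 1 for alpha, beta and gamma (8 in all), and IL-4 regions to 4, 8 and 14 (26 in all). With the limit on both lists, overlap fell to 25% of untreated and 7.69% of IL-4 regions. Genes with a summit 1 to 3 kb past the start fell to 4 and 16. With a fold of at least 3, marked ends, ends with IL-4 alone, untreated regions and IL-4 regions of alpha and beta fell to 0, gamma kept 4 IL-4 regions (4 in all), and genes with such a summit numbered 0 and 1. With windows of 500 bp, 2 kb and 5 kb, marked ends were 6, 57 and 70 untreated and 10, 62 and 72 with IL-4, and by starts only 6 and 9. Ends with IL-4 alone were 5 at 500 bp, 4 at 5 kb and 5 with lists of equal length. The summit 1 to 3 kb past the start was found in 40 and 38 genes with lists of equal length and in 38 and 42 at 1.5 to 2.5 kb, alternatives that, like the others for this interval, were chosen after seeing the data. Leaving out a replicate was not possible, and no paired analysis was possible because each group has 1 library. The planned description of promoter letters was not run.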
